A study of Mus musculus with 6 samples.

Results

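Trichohyalin, the enzymes that modify and cross-link it, and corneodesmosin were followed through the mouse hair follicle lineage. The set held 10 genes, chosen by name from the platform annotation: the transglutaminases Tgm1, Tgm2, Tgm3 and Tgm5, the peptidylarginine deiminases Padi1, Padi2, Padi3 and Padi4, trichohyalin (Tchh) and corneodesmosin (Cdsn). All 10 were among the 18193 genes measured. They were covered by 16 probe sets: 6 for Tgm2, 2 for Tgm3 and 1 for each of the other 8 genes.

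Transcripts were measured on 6 arrays, 2 for each of 3 cell populations sorted from untreated female mice of the CD-1 strain, all from back skin. The HF-TAC group held transient-amplifying matrix cells of the hair follicle from mice of postnatal day 28 to 30, sorted on GFP, integrin α6 and ephrinB1. The aHF-SC group held activated hair follicle stem cells of the same age, sorted on GFP, integrin α6 and CD34. The qHF-SC group held quiescent hair follicle stem cells from mice of postnatal day 52 to 60, sorted on integrin α6 and CD34. The labels do not name the allele that carried GFP or the side of each gate, nor whether the 2 arrays of a group came from separate animals. The p-values therefore measure the spread between arrays, which may be technical. Age and the GFP gate differed along with cell state between qHF-SC and both other groups, and the sorting marker did so between HF-TAC and aHF-SC, and these cannot be told apart.

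Trichohyalin is a large, arginine-rich protein that fills the cells of the inner root sheath, the sleeve that moulds the growing hair, and the medulla of the hair shaft. Deiminases convert its arginines to citrulline, which loosens its folding, and transglutaminases then join its glutamine and lysine side chains into bonds that proteases cannot cut. In humans, loss of PADI3, TGM3 or TCHH function causes uncombable hair syndrome. The matrix cells at the base of the follicle divide and give rise to the sheath and the shaft, whereas the stem cells of the bulge above them sit earlier in the lineage.

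The labelled cell types were set against their markers first. Cd34, a bulge surface marker that was also used for the stem cell sorts, had an intensity of 15.3 and 25.7 in HF-TAC, 2380 and 3250 in aHF-SC, and 7190 and 8560 in qHF-SC. The summed intensity of 8 matrix markers was 3950 to 6610 in HF-TAC, 1180 to 1250 in aHF-SC and 573 to 751 in qHF-SC. HF-TAC also carried more signal from 7 inner root sheath markers, with sums of 5810 to 11900 in HF-TAC, 793 to 1130 in aHF-SC and 495 to 605 in qHF-SC. For 8 markers of differentiated keratinocytes the sums were 24700 to 41500 in HF-TAC, 13900 to 16300 in aHF-SC and 29100 to 30200 in qHF-SC. Hair shaft markers summed to 3900 to 9790 in HF-TAC, 250 to 328 in aHF-SC and 81.4 to 103 in qHF-SC, and sebaceous and upper follicle markers to 10300 to 14900, 2620 to 2890 and 3130 to 4260 in the same order. Most of the sebaceous and upper follicle sum in HF-TAC was Krt79, an upper follicle keratin, at 11200 and 6640, beside 241 to 399 on the stem cell arrays. Of the others, Plin2 was not higher in HF-TAC and Mc5r was under background on every array. Scd1 and Fasn overlapped a stem cell group, and Pparg read higher in HF-TAC. Dermal fibroblast markers summed to 3800 to 6320 in HF-TAC, 372 to 646 in aHF-SC and 422 to 529 in qHF-SC, and in HF-TAC nearly all of it was Dcn. The 6 immune markers summed to 263 to 322 in HF-TAC, 179 to 204 in aHF-SC and 243 to 294 in qHF-SC. Of these, Ptprc was under the background intensity of 21.9 on every array, whereas H2-Aa, Cd74 and Cd3e were above it on every array. The background intensity is the highest array median of 16 transcription factor genes not known from skin. It is not an upper limit of background, since Nkx2-5, among those genes, read 35.4 to 43.7 over all arrays. In these bulk samples, fewer cells of a type and less RNA per cell cannot be told apart.

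In HF-TAC against aHF-SC, 4 of the 10 genes were higher (Tchh, Tgm1, Tgm3 and Cdsn) and Tgm5 was lower, by limma with a Benjamini-Hochberg adjusted p under 0.05 over all 18193 genes. Over all genes, 17.5% passed in that comparison, 8.97% higher and 8.57% lower. In HF-TAC against qHF-SC, 5 were higher (Tchh, Tgm1, Tgm3, Padi3 and Padi4) and Tgm5 was again lower, where 26.3% of all genes passed, 13.4% higher and 12.9% lower. In aHF-SC against qHF-SC, Padi3 and Padi4 were higher and no member was lower by limma, where 6.28% of all genes passed, 3.07% higher and 3.21% lower. At an unadjusted p under 0.05, Tgm5 and Cdsn were the members lower in that comparison. The median log2 difference of the 10 genes was 0.74, 1.29 and 0.01 in these 3 comparisons, beside -0.01, -0.01 and 0 over all genes. For 9, 8 and 5 of the 10 genes every array of one group lay beyond every array of the other, beside 54.3%, 61.2% and 50.8% of all genes. These counts rest on 3 residual degrees of freedom, and both comparisons with HF-TAC share its 2 arrays.

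**Figure D1:**
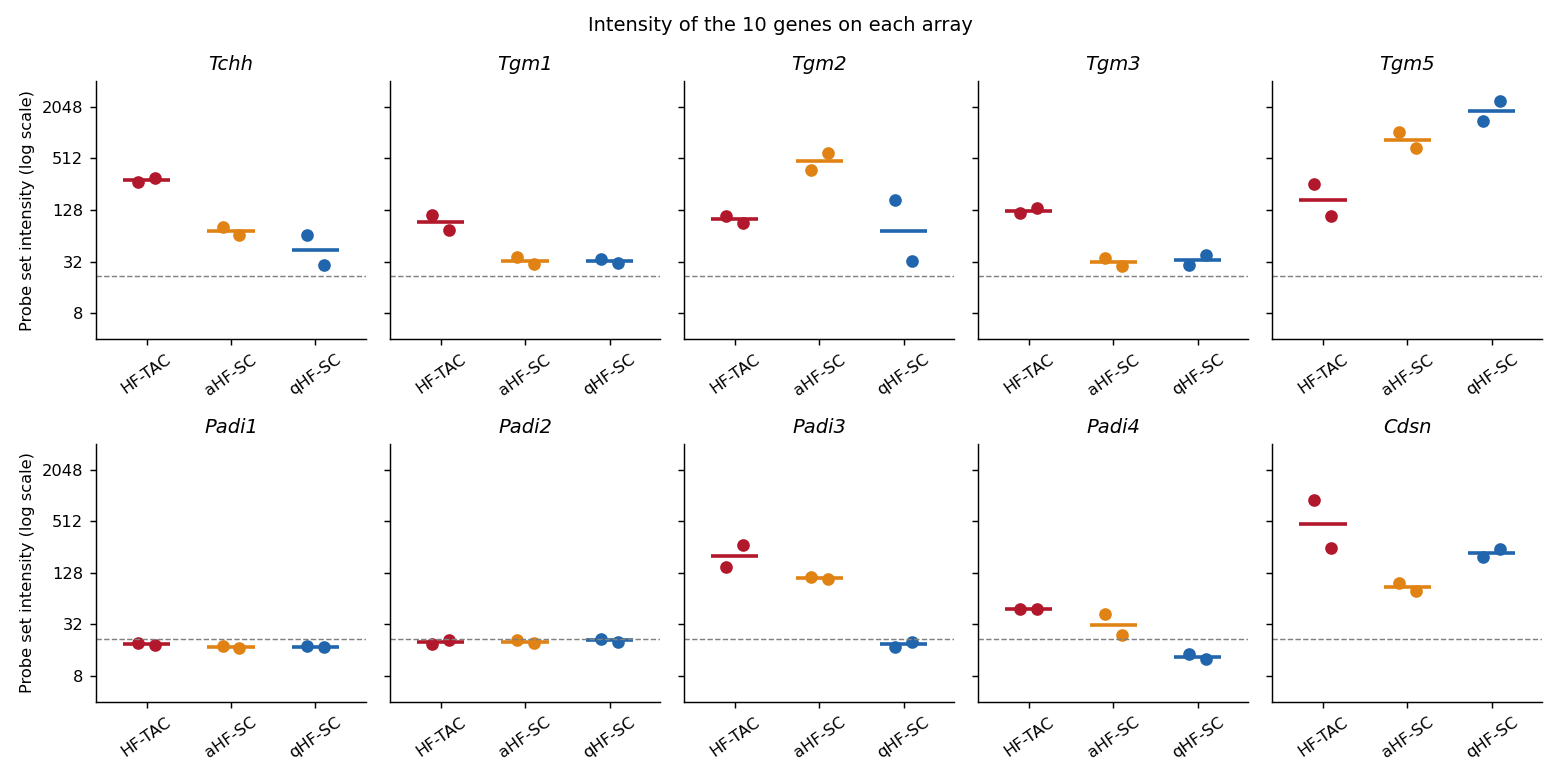
Intensity of each gene's probe set on every array (log axis), with HF-TAC on the left, aHF-SC in the middle and qHF-SC on the right, a line at each group's geometric mean and a dashed line at the background intensity of 21.9. Tchh, Tgm1 and Tgm3 are highest in HF-TAC, Tgm5 is lowest there, Tgm2 is highest in aHF-SC, and Padi1 and Padi2 lie at background in all 3 groups.

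**Figure D2:**
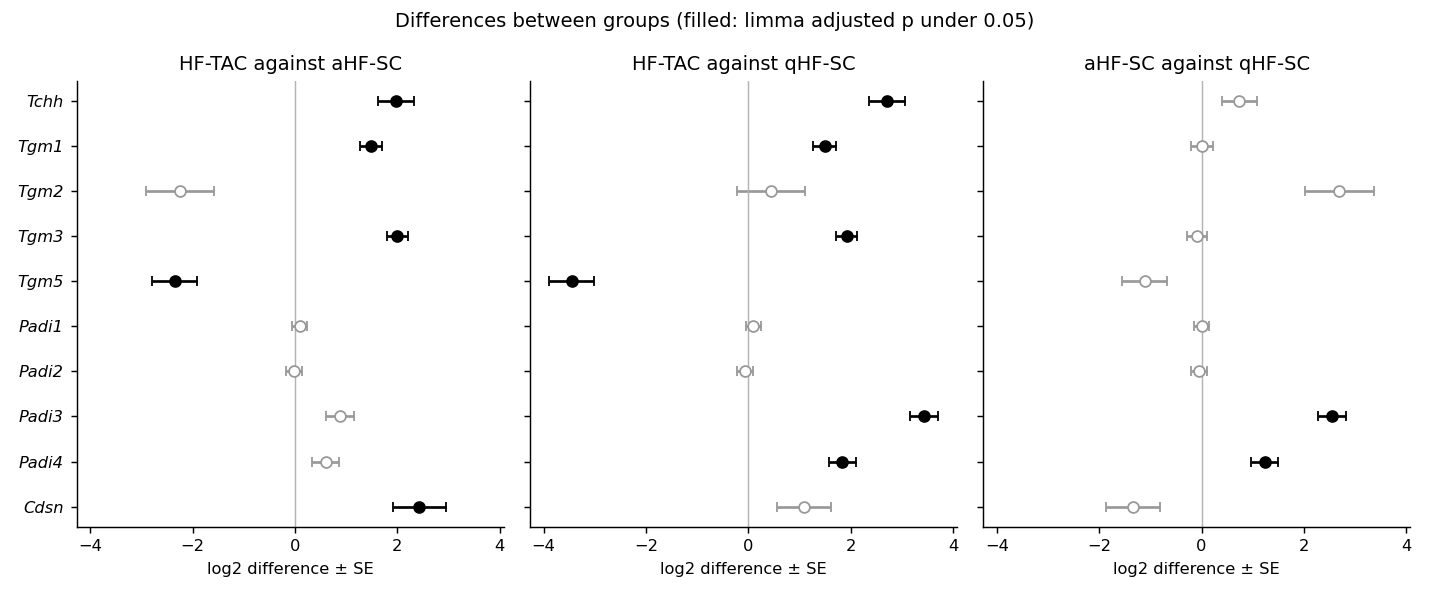
Log2 difference of each gene in each of the 3 comparisons, with bars of its SE from the limma fit, filled where the adjusted p was under 0.05. The transglutaminases split, with Tgm1 and Tgm3 above 0 and Tgm5 below 0 in both comparisons with HF-TAC, and Padi3 lies above 0 in all 3. The Padi3 and Padi4 values against qHF-SC are fitted over a group under background.

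The sequences upstream of trichohyalin, of Tgm3 as its cross-linker in the inner root sheath, and of both deiminases that changed are shown for the 250 bases before the annotated start. They come from RefSeq on the mouse build GRCm38.p6, at chr3:93442080-93442329 on the plus strand for Tchh, chr2:130012090-130012339 on the plus strand for Tgm3, chr4:140810649-140810898 on the minus strand for Padi3 and chr4:140774204-140774453 on the minus strand for Padi4. Each is written 5′ to 3′ in the direction of the gene, and capitals mark matches to the motifs described next.
Tchh: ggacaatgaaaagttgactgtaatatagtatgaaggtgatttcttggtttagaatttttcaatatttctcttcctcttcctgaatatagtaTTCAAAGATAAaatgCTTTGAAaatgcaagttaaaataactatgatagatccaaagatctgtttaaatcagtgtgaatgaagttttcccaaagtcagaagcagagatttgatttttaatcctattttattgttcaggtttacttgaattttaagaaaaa
Tgm3: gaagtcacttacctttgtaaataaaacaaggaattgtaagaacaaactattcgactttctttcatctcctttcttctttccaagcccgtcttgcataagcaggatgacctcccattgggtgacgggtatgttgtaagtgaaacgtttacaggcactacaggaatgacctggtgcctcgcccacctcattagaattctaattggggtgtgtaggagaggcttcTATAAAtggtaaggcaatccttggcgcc
Padi3: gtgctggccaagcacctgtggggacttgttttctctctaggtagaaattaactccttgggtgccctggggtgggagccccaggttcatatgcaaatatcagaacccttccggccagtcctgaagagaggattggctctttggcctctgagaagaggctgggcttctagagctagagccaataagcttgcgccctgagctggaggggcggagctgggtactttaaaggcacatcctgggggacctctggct
Padi4: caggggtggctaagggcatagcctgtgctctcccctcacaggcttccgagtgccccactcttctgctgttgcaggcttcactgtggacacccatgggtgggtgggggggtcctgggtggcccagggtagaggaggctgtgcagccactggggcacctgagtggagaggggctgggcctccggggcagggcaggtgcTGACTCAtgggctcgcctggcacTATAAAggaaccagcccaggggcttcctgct

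The 4 motifs were searched as plain letters on both strands, over the same 250 bases of all 32851 promoters in the table. The TCF/LEF letters, CTTTGAA or CTTTGAT, are those bound by Lef1 and its relatives. They occurred at 159 to 153 and again at 144 to 138 bases before the Tchh start, on opposite strands, and in 7.48% of all promoters. The GATA letters AGATAA, at 154 to 149 bases before the Tchh start, overlapped the upstream TCF/LEF match, and AGATAA or TGATAA occurred in 16.6% of promoters. A TATAAA box lay 28 to 23 bases before the Tgm3 start and 31 to 26 bases before the Padi4 start, a spacing in which TATA boxes are usually found, and TATAAA occurred in 12.4% of promoters. The AP-1 letters TGACTCA, whose reverse complement TGAGTCA is the other form searched, lay 54 to 48 bases before the Padi4 start and occurred in 4.46% of promoters. The Padi3 window held no match. Elsewhere, Tgm1 and Cdsn each had 1 TCF/LEF match, and 9 of the 10 genes had an entry in the promoter table. A match describes letters only.

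Trichohyalin, the structural substrate, was highest in the matrix cells. Its intensity was 270 and 304 in HF-TAC, 82.1 and 64.9 in aHF-SC, and 65.5 and 29.1 in qHF-SC. Both HF-TAC arrays lay above all 4 stem cell arrays, while the aHF-SC and qHF-SC arrays overlapped. Tchh was 3.92-fold higher in HF-TAC than in aHF-SC (log2 difference 1.97 ± 0.35 SE, n = 2 each, limma adjusted p = 0.00897). Against qHF-SC it was 6.56-fold higher (2.71 ± 0.35 SE, limma adjusted p = 0.0014). Between aHF-SC and qHF-SC the log2 difference was 0.74 with a 95% interval of -0.09 to 1.57 (limma adjusted p = 0.302), so their order was not resolved. The call against aHF-SC was lost without aHF-SC replicate 2 (limma adjusted p = 0.0627). Without qHF-SC replicate 1, the larger of the 2 qHF-SC values, the difference between aHF-SC and qHF-SC was 1.33 and passed (limma adjusted p = 0.0388), and that between HF-TAC and qHF-SC was 3.3. Without qHF-SC replicate 2 the same differences were 0.16 (limma adjusted p = 0.863) and 2.13 (0.00343). The inner root sheath and hair shaft sums given above were high on the same arrays, also for Tgm3 and Padi3, and their part in these results was not tested.

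Of the transglutaminases, Tgm1 and Tgm3 were higher in the matrix cells. Tgm3, the transglutaminase of the inner root sheath and hair shaft, had an intensity of 118 and 135 in HF-TAC, 35.1 and 28.3 in aHF-SC, and 29.2 and 38.4 in qHF-SC on its brighter probe set. The HF-TAC arrays stood clear of the other 4, which overlapped one another. It was 4.01-fold higher in HF-TAC than in aHF-SC (log2 difference 2.00 ± 0.20 SE, n = 2 each, limma adjusted p = 0.00105) and 3.78-fold higher than in qHF-SC (1.92 ± 0.20 SE, limma adjusted p = 0.000588). The dimmer Tgm3 probe set, 1421355_at, went the same way with smaller differences of 0.54 and 0.39, and passed in neither comparison over all probe sets (limma adjusted p = 0.0632 and 0.129). Averaging both probe sets gave 1.27 and 1.15, each still past the threshold.

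Tgm1, the membrane-anchored enzyme that builds the cornified envelope of keratinocytes, had an intensity of 112 and 75.2 in HF-TAC, 35.9 and 30.2 in aHF-SC, and 34.1 and 31.2 in qHF-SC. Again the HF-TAC arrays did not overlap the rest. Its log2 difference was 1.48 ± 0.22 SE in HF-TAC against aHF-SC (2.80-fold, limma adjusted p = 0.00421) and 1.49 ± 0.22 SE against qHF-SC (2.82-fold, limma adjusted p = 0.00247). For aHF-SC against qHF-SC the difference was 0.01, with a 95% interval of -0.5 to 0.53.

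Tgm5, which cross-links envelope proteins in the upper layers of the epidermis, ran the other way. It had an intensity of 257 and 108 in HF-TAC, 1050 and 683 in aHF-SC, and 1400 and 2370 in qHF-SC. The 3 groups did not overlap, with HF-TAC lowest and qHF-SC highest. Tgm5 was 5.09-fold lower in HF-TAC than in aHF-SC (log2 difference -2.35 ± 0.44 SE, n = 2 each, limma adjusted p = 0.011) and 11-fold lower than in qHF-SC (-3.45 ± 0.44 SE, limma adjusted p = 0.00131). The step between aHF-SC and qHF-SC, -1.11 with a 95% interval of -2.14 to -0.07, did not pass after adjustment (limma adjusted p = 0.215). Without aHF-SC replicate 1 the call against aHF-SC was lost (limma adjusted p = 0.0623). The 2 HF-TAC arrays differed, and the difference from aHF-SC was -2.97 without HF-TAC replicate 1 and -1.72 without HF-TAC replicate 2. Against qHF-SC it was -4.08 and -2.83 without those same arrays. The summed intensity of 8 bulge stem cell markers was also lowest in HF-TAC, at 7670 to 10600 in HF-TAC, 32300 to 38000 in aHF-SC and 40500 to 41500 in qHF-SC. Most of it was Krt15, and every marker was lowest in HF-TAC. Between the stem cell groups, Cd34, Lhx2 and Nfatc1 were higher in qHF-SC. Tcf7l1 was lower there, at 394 and 344 beside 588 and 1040 in aHF-SC, and Lgr5, Krt15, Sox9 and Itga6 overlapped. The part of these markers in the Tgm5 result was not tested.

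Tgm2, the broadly expressed tissue transglutaminase that also binds GTP, was brightest in aHF-SC. On the probe set with the highest mean, 1433428_x_at, its intensity was 109 and 91.3 in HF-TAC, 380 and 593 in aHF-SC, and 168 and 32.2 in qHF-SC. The aHF-SC arrays lay above the other 4, and the qHF-SC arrays were far apart on either side of HF-TAC. Neither the log2 difference of -2.25 ± 0.67 SE in HF-TAC against aHF-SC (limma adjusted p = 0.0595) nor that of 2.69 ± 0.67 SE in aHF-SC against qHF-SC (limma adjusted p = 0.0624) passed. The HF-TAC against aHF-SC difference passed when only those 4 arrays were fitted (limma adjusted p = 0.00375, same difference). Leaving out either qHF-SC array only repeats that fit, since the lone array left adds nothing to the spread.

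The other Tgm2 probe sets passed in part. Over all 45037 probe sets, 3 of the 6 were higher in activated than in quiescent stem cells: 1417500_a_at by 2.22 (limma adjusted p = 0.0132), 1455900_x_at by 2.88 (0.0383) and 1426004_a_at by 0.76 (0.0452). In that comparison 5 of the 16 member probe sets were higher and none lower, beside 2.35% and 2.66% of all probe sets (5.02% in both directions). Both 1417500_a_at and 1426004_a_at were also lower in HF-TAC than in aHF-SC, with log2 differences of -1.91 and -0.69 (limma adjusted p = 0.00945 and 0.0357), where 4 member probe sets were higher and 3 lower, beside 5.98% and 5.48% of all (11.5% in both directions). A further probe set, 1438942_x_at, read 7.66 to 9.60 on all 6 arrays, under background. In HF-TAC against qHF-SC none of the 6 passed by limma, also at an unadjusted p under 0.05, while 5 of the 16 member probe sets were higher and 1 lower, beside 10.3% and 9.78% of all (20.1% in both directions). Names ending in _x_at mark probe sets whose probes may also bind transcripts of other genes.

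The qHF-SC replicates decided the Tgm2 values. Without qHF-SC replicate 1 the difference between aHF-SC and qHF-SC was 3.88 (limma adjusted p = 0.00421), and without qHF-SC replicate 2 it was 1.5 (0.101). For HF-TAC against qHF-SC the same omissions gave 1.63 (limma adjusted p = 0.0164) and -0.75 (0.172), so that no direction can be given.

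**Figure D3:**
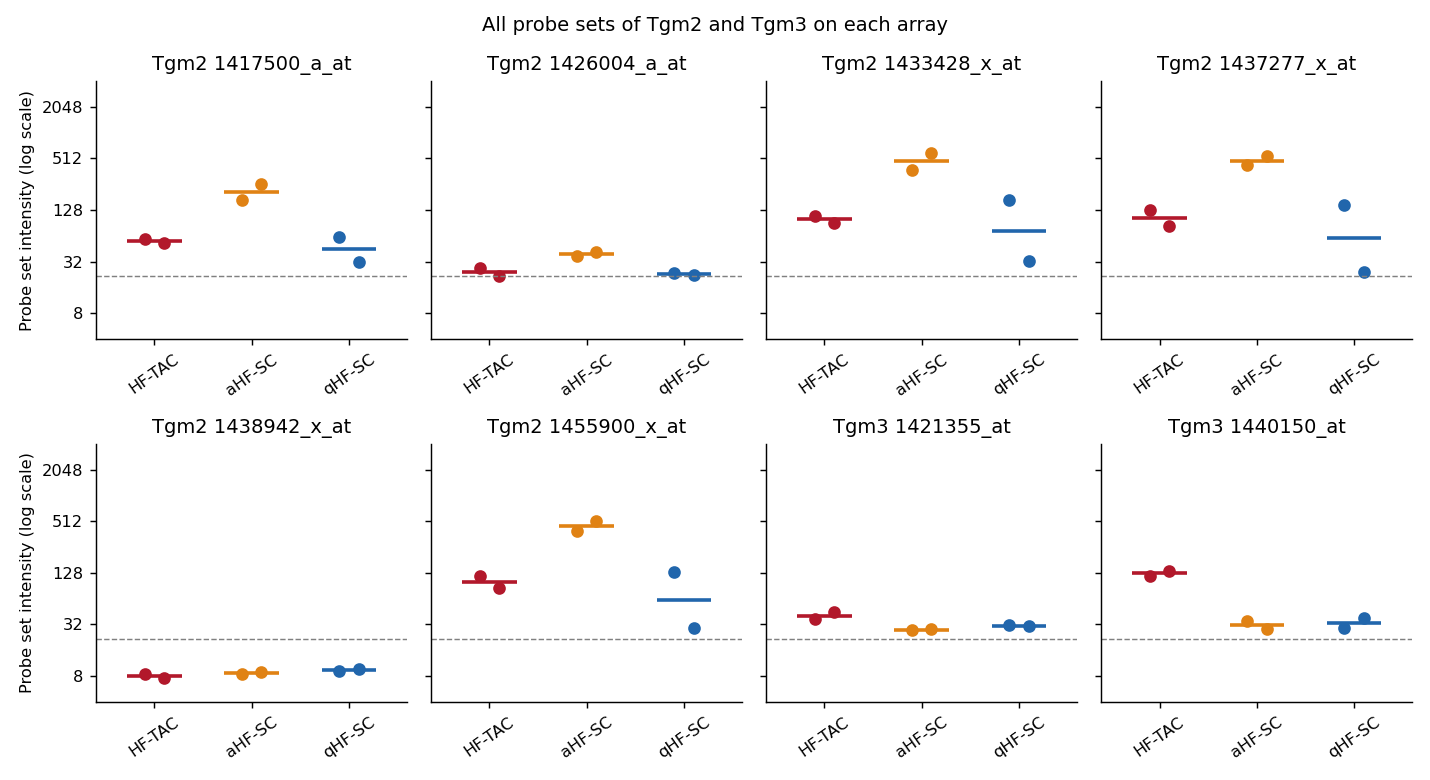
Intensity on every array (log axis) of the 6 Tgm2 and 2 Tgm3 probe sets, 1 panel each, with HF-TAC left of aHF-SC and qHF-SC and the background intensity dashed. In 5 Tgm2 panels the aHF-SC arrays are highest, 1438942_x_at stays under background, and both Tgm3 panels are highest in HF-TAC.

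Padi3 and Padi4 were the deiminases that changed. Padi3, the enzyme that acts on trichohyalin in the inner root sheath and medulla, had an intensity of 151 and 273 in HF-TAC, 114 and 107 in aHF-SC, and 17.6 and 20.2 in qHF-SC. The 3 groups did not overlap, and both qHF-SC arrays were under background. With the qHF-SC arrays set to the background intensity, a value without an error, it was 9.26-fold higher in HF-TAC than in qHF-SC (fitted log2 difference 3.43 ± 0.27 SE, n = 2 each, limma adjusted p = 0.000196). Set the same way, it was 5.04-fold higher in aHF-SC than in qHF-SC (fitted 2.55 ± 0.27 SE, limma adjusted p = 0.00508). HF-TAC against aHF-SC gave 0.88, with a 95% interval of 0.24 to 1.51, and missed the threshold (limma adjusted p = 0.0686). Without HF-TAC replicate 1 the difference was 1.31 and passed (limma adjusted p = 0.0076), and without HF-TAC replicate 2 it was 0.45 (0.221). It also passed after scaling to the 75th percentile (limma adjusted p = 0.0442). With 16 added to each intensity before the logarithm, which shrinks differences near background, the comparisons with qHF-SC gave 2.65 for HF-TAC and 1.86 for aHF-SC, both still past the threshold.

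Padi4, which has a nuclear localisation signal and citrullinates histones, showed lower signal. Its intensity was 47.9 and 48.4 in HF-TAC, 42.1 and 23.8 in aHF-SC, and 14.3 and 12.6 in qHF-SC. The groups did not overlap, and qHF-SC was again under background. With qHF-SC set to the background intensity, Padi4 was 2.2-fold higher in HF-TAC than in qHF-SC (fitted log2 difference 1.84 ± 0.26 SE, limma adjusted p = 0.00215). In aHF-SC against qHF-SC it was 1.45-fold higher by the same setting (fitted 1.23 ± 0.26 SE, limma adjusted p = 0.04), and HF-TAC against aHF-SC gave 0.60 (0.18). These folds carry no error, and aHF-SC replicate 2, at 23.8, lay close to the background intensity. The aHF-SC call was lost with 16 added (limma adjusted p = 0.119), and without aHF-SC replicate 1 (0.106), qHF-SC replicate 1 (0.117) or qHF-SC replicate 2 (0.223). Without aHF-SC replicate 1, HF-TAC against aHF-SC gave 1.02 and passed (limma adjusted p = 0.0221), and without aHF-SC replicate 2 it gave 0.19 (0.665).

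Padi4 is also known from neutrophils, so myeloid markers were read beside it. Itgam, the integrin chain of neutrophils and macrophages, was at 6.81 and 5.90 in HF-TAC, 8.08 and 6.71 in aHF-SC, and 6.34 and 6.78 in qHF-SC, under background throughout. S100a8, which keratinocytes also make, was at 1140 and 152 in HF-TAC, 22.4 and 18.4 in aHF-SC, and 34.7 and 17.7 in qHF-SC. S100a9 was at 36.7 and 41.8 in HF-TAC, 14.1 and 13.6 in aHF-SC, and 18.1 and 17.6 in qHF-SC. It was higher in HF-TAC against aHF-SC and against qHF-SC (limma adjusted p = 0.00105 and 0.00151). Csf1r was at 43.6 to 58.3 over the 6 arrays, above background, and Pf4 was under background throughout. The summed intensity of the 5 myeloid and platelet markers was 261 to 1240 in HF-TAC, 95.9 to 109 in aHF-SC and 112 to 119 in qHF-SC. Their part in the Padi4 result was not tested.

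Padi1, a deiminase of the epidermis, and Padi2, which is found in many tissues, were not above background. Padi1 read 19.3 and 18.2 in HF-TAC, 18.0 and 17.1 in aHF-SC, and 17.7 and 17.3 in qHF-SC. Padi2 read 18.7 and 21.2 in HF-TAC, 21.2 and 19.2 in aHF-SC, and 21.9 and 19.8 in qHF-SC. No fold is given for either gene, since the array did not measure them above its floor in any group.

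The deiminase genes lie side by side on chromosome 4, in the order Padi6, Padi4, Padi3, Padi1, Padi2 in RefSeq on GRCm38.p6. Only the neighbours Padi4 and Padi3 passed in any of the 3 comparisons. Padi6, the oocyte deiminase, averaged 21.1 in HF-TAC, 19.1 in aHF-SC and 18.9 in qHF-SC, with all 3 means under background. Sdhb, the gene next to Padi2, averaged 2640 in HF-TAC, 2150 in aHF-SC and 2160 in qHF-SC, and passed in none.

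**Figure D4:**
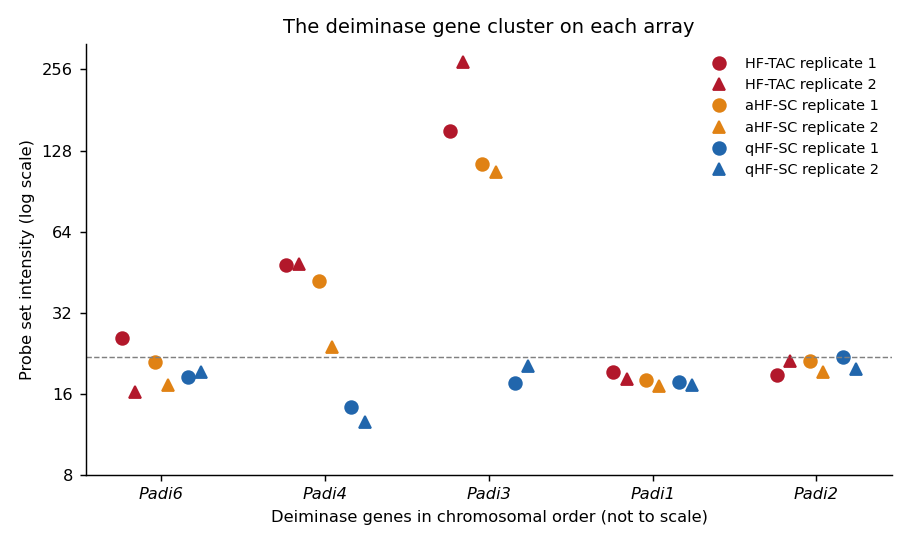
Intensity of the 5 deiminase genes on every array (log axis), placed in chromosomal order and not to scale, with circles for replicate 1, triangles for replicate 2 and the background intensity dashed. At Padi4 and Padi3 the HF-TAC and aHF-SC arrays lie above the line and the qHF-SC arrays below it, while the other 3 genes stay near the line in all groups.

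Corneodesmosin, an adhesive protein of the junctions between cornified cells that is also made in the inner root sheath, varied between the HF-TAC arrays. Its intensity was 892 and 246 in HF-TAC, 96.5 and 78.2 in aHF-SC, and 198 and 243 in qHF-SC. The groups did not overlap, though the lower HF-TAC array lay just above the higher qHF-SC array. Cdsn was 5.39-fold higher in HF-TAC than in aHF-SC (log2 difference 2.43 ± 0.52 SE, n = 2 each, limma adjusted p = 0.0185). It did not pass in HF-TAC against qHF-SC (1.09, 95% interval -0.13 to 2.31, limma adjusted p = 0.184) or in aHF-SC against qHF-SC (-1.34, 95% interval -2.56 to -0.12, limma adjusted p = 0.205). The second of these passed when only the arrays of both compared groups were fitted (limma adjusted p = 0.0137, same difference). Leaving out either HF-TAC array only repeats that fit.

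HF-TAC replicate 1 carried much of the Cdsn difference. Against aHF-SC the difference was 1.5 without HF-TAC replicate 1 and 3.36 without HF-TAC replicate 2, and the call was lost without aHF-SC replicate 1 (limma adjusted p = 0.061) or replicate 2 (0.103) and with 16 added (0.0667). Against qHF-SC it was 0.16 without HF-TAC replicate 1, and 2.02 without HF-TAC replicate 2, where it passed (limma adjusted p = 0.00201). Of the cornified envelope genes 22 of 25, and of the corneodesmosome genes 10 of 12, also read higher on HF-TAC replicate 1 than on replicate 2, as did 14 of the 16 background transcription factors. The size of the split varied: Klk5 had 1160 and 476, Lor 850 and 167, and Ivl 771 and 680, while Dsc2 had 137 and 351. Other lists went the opposite way, with 6 of 7 inner root sheath keratins and 12 of 15 hair lineage regulators higher on HF-TAC replicate 2. The summed differentiated keratinocyte markers reached their 41500 on replicate 1, and their part in the Cdsn result was not tested.

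Beside their neighbours on the chromosome, the members stood out at some loci and not at others. Tchh lies on chromosome 3 between Rptn and Tchhl1, both of the same fused S100 family. Rptn averaged 11.1 in HF-TAC, 11 in aHF-SC and 13.2 in qHF-SC, and Tchhl1 13.5 in HF-TAC, 9.16 in aHF-SC and 9.96 in qHF-SC, all under background. Farther along, Flg, the filaggrin gene, was higher in HF-TAC than in aHF-SC (104 against 23.9, limma adjusted p = 0.0431), a call lost without either HF-TAC replicate or aHF-SC replicate 2. Tgm5 lies on chromosome 2 next to Epb42, a catalytically inactive relative that averaged 10.4 in HF-TAC, 10.1 in aHF-SC and 11.3 in qHF-SC. Next to Tgm1 on chromosome 14, Tinf2, a telomere protein gene, was also higher in HF-TAC, at 304 in HF-TAC, 155 in aHF-SC and 138 in qHF-SC (limma adjusted p = 0.00662 against aHF-SC and 0.00215 against qHF-SC).

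For 3 members, the 5 genes with the most similar profile were found by Euclidean distance between centred log2 values over the 6 arrays. Since the arrays fall into 3 groups, these distances mostly follow the group means. Nearest to Tchh were Pole, Chaf1b, Mpp6, Wdhd1 and Rhov, at distances of 0.549 to 0.66. Pole, the catalytic subunit of DNA polymerase epsilon, read 218 and 308 in HF-TAC, 95.6 and 69.0 in aHF-SC, and 50.6 and 31.9 in qHF-SC. Nearest to Tgm3 were Lonrf3, Mis18a, Bambi, Slc7a5 and Lig1, at 0.171 to 0.4. Lonrf3 read 95.1 and 109 in HF-TAC, 26.2 and 20.4 in aHF-SC, and 21.2 and 27.8 in qHF-SC. Nearest to Padi3 were Ttc7b, Tubb6, Msi1, Scarb1 and Catsperz, at 0.763 to 1.07. Ttc7b read 95.6 and 176 in HF-TAC, 71.3 and 76.7 in aHF-SC, and 19.6 and 18.3 in qHF-SC.

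The genes that work with these enzymes were read as lists, by counts and medians. For every list, the share of all genes passing stands beside the counts. It was 17.5% in HF-TAC against aHF-SC (8.97% higher, 8.57% lower) and 26.3% in HF-TAC against qHF-SC (13.4% higher, 12.9% lower). In aHF-SC against qHF-SC it was 6.28% (3.07% higher, 3.21% lower). Among inner root sheath keratins, the filament proteins in which trichohyalin is embedded, 6 of 7 were higher in HF-TAC than in aHF-SC and 6 of 7 higher than in qHF-SC, with median log2 differences of 3.29 and 5.06. The count against aHF-SC was 4 without either aHF-SC array. Krt25 averaged 3930 ± 1860 in HF-TAC, 173 ± 103 in aHF-SC and 18.3 ± 6.34 in qHF-SC (SD, n = 2 each). Krt28 averaged 2300 ± 1080 in HF-TAC, 81.0 ± 27.2 in aHF-SC and 17.8 ± 1.94 in qHF-SC. In aHF-SC against qHF-SC, 3 of 7 were higher, Krt25, Krt28 and Krt27, with fitted log2 differences of 3.14, 2.14 and 1.76 (limma adjusted p = 0.0158, 0.0185 and 0.0213). Their qHF-SC means of 18.3, 17.8 and 21.4 were under background, as both Krt28 arrays and 1 array each of Krt25 and Krt27 were. With those arrays set to background, the differences were 2.81 for Krt25, 1.84 for Krt28 and 1.62 for Krt27. All 3 of these calls were lost without aHF-SC replicate 2, without qHF-SC replicate 2 and with 16 added (limma adjusted p = 0.0809, 0.105 and 0.0891).

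Most genes of a list holding the corneodesmosome, the proteases that take it apart and their inhibitor Spink5 were higher in the matrix cells. Compared with aHF-SC, HF-TAC had 8 of the 12 genes higher, and compared with qHF-SC 9 of the 12, with none lower in either, with medians of 1.93 and 1.48. The 8 included Spink5, higher by 2.31 on the log2 scale (limma adjusted p = 0.0148), whose difference against qHF-SC was -0.01. Against qHF-SC the count was 4 without qHF-SC replicate 2. Klk7, a protease that cleaves corneodesmosin, averaged 7040 ± 3580 in HF-TAC, 279 ± 74.4 in aHF-SC and 402 ± 79.6 in qHF-SC (SD, n = 2 each, limma adjusted p = 0.000515 and 0.000338). Klk6 was higher by 3.49 and 3.56 on the log2 scale (limma adjusted p = 0.00298 and 0.00149). The desmosomal cadherin Dsc1 was higher than in aHF-SC by 3.45 (limma adjusted p = 0.00329), and Dsg1a was higher than in qHF-SC by 2.02 (0.000759). In aHF-SC against qHF-SC, Spink5 was lower by 2.32 on the log2 scale (limma adjusted p = 0.034), and Ctsd was higher by 1.02 (0.0442). Both calls were lost without any 1 of the 4 arrays compared.

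Genes of the cornified envelope and of keratinocyte differentiation, only some of which encode substrates of Tgm1, Tgm3 and Tgm5, were mixed. In HF-TAC against aHF-SC, 8 of 25 were higher and none lower (median 0.8), against qHF-SC 2 were higher and 1 lower (median -0.22), and in aHF-SC against qHF-SC 7 were lower and none higher (median -0.52). In HF-TAC against qHF-SC the list thus passed less often than all genes, of which 26.3% passed. Ivl, involucrin, averaged 725 ± 64.5 in HF-TAC, 83.6 ± 4.39 in aHF-SC and 119 ± 5.46 in qHF-SC (SD, n = 2 each, limma adjusted p = 0.000112 and 7.92e-05). Sprr1a, a small proline-rich cross-bridging protein, averaged 7750 ± 3540 in HF-TAC, 832 ± 99.4 in aHF-SC and 294 ± 268 in qHF-SC (limma adjusted p = 0.0164 and 0.0014). The Sprr1a call against aHF-SC was lost without HF-TAC replicate 1 (limma adjusted p = 0.0696), aHF-SC replicate 1 (0.0766) or aHF-SC replicate 2 (0.0727). Lce1m, a late envelope protein, averaged 67.0 ± 62.3 in HF-TAC and 323 ± 7.32 in qHF-SC (limma adjusted p = 0.0248), a call lost without either qHF-SC array. Activated stem cells had less Lor, Lce1m and Crct1 than quiescent ones, with log2 differences of -3.8, -3.53 and -2.59 (limma adjusted p = 0.0282, 0.0292 and 0.043). Those 3 calls, too, were lost without any 1 of the 4 arrays compared. The number lower ranged from 0, without aHF-SC replicate 1, aHF-SC replicate 2 or qHF-SC replicate 2, to 11 over the omissions of 1 array. The number called against aHF-SC in HF-TAC ranged from 3 to 14 over the same omissions, and that against qHF-SC from 2 to 9.

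Genes of a list built around the proteases that activate transglutaminases and their cystatin inhibitor moved in both directions. Cst6, cystatin M/E, which inhibits cathepsin L and legumain, had an intensity of 27900 and 17000 in HF-TAC, 2240 and 1300 in aHF-SC, and 1460 and 1910 in qHF-SC. It was 12.7-fold higher in HF-TAC than in aHF-SC (limma adjusted p = 0.000737) and 13-fold higher than in qHF-SC (0.000314). Its targets went the opposite way against aHF-SC: Ctsl, cathepsin L, which can activate Tgm3, was 3.3-fold lower and Lgmn, legumain, 2.25-fold lower (limma adjusted p = 0.00468 and 0.00435). Averaging probe sets took the Ctsl log2 difference to -0.91, with the call kept. Against qHF-SC, Ctsl and Lgmn were lower too, with log2 differences of -1.51 and -1.48 (limma adjusted p = 0.00514 and 0.000983). Ctsc, cathepsin C, averaged 1430 ± 186 in HF-TAC, 671 ± 303 in aHF-SC and 66.3 ± 39.9 in qHF-SC (SD, n = 2 each). It passed in HF-TAC against qHF-SC (limma adjusted p = 0.000486) and in aHF-SC against qHF-SC (0.0106), the second call being lost without aHF-SC replicate 1 or qHF-SC replicate 2. The list of 9 genes also held Asah1, Alox12b, Aloxe3, Abca12 and Tgfb1, which are neither proteases nor cystatins. Of the 9 genes, 1 was higher and 3 lower in HF-TAC against aHF-SC (median 0.24), and 3 were higher and 3 lower against qHF-SC (median -0.1). Asah1 was among those lower in both comparisons, and Tgfb1 among those higher against qHF-SC.

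Among 9 S100 genes, 3 were higher and 2 lower in HF-TAC against aHF-SC, and 5 higher and 3 lower against qHF-SC, where 5 passed in all without qHF-SC replicate 2. S100a3, a hair cuticle protein that human PADI3 citrullinates, had an intensity of 344 and 567 in HF-TAC, 103 and 93.2 in aHF-SC, and 97.1 and 101 in qHF-SC (limma adjusted p = 0.00147 and 0.000768). S100a4 was lowest in HF-TAC, averaging 158 ± 37.7 in HF-TAC, 5570 ± 1650 in aHF-SC and 18400 ± 1360 in qHF-SC (SD, n = 2 each, limma adjusted p = 0.000112 and 3.15e-05). Activated stem cells differed from quiescent ones by -1.75 for S100a4 and 1.31 for S100a14 on the log2 scale (limma adjusted p = 0.0127 and 0.00703), and both calls were lost without qHF-SC replicate 2. Of 15 hair lineage transcription regulators, 8 were higher and 2 lower in HF-TAC against aHF-SC, and 9 higher and 2 lower against qHF-SC. Lef1, the factor that binds the TCF/LEF letters, averaged 564 ± 232 in HF-TAC, 42.4 ± 1.32 in aHF-SC and 35.5 ± 4.10 in qHF-SC (limma adjusted p = 0.00041 and 0.000123). Cux1, Msx2 and Msx1 were the others named by size: Cux1 was higher by 3.73 and 3.79 on the log2 scale, Msx2 by 3.08 against aHF-SC, and Msx1 by 3.42 against qHF-SC. Averaging probe sets took Cux1 to 2.36 in both comparisons and Msx2 to 1.64, and leaving out probe sets ending in _x_at and _s_at took Msx1 to 1.24, all still past the threshold. None of the 15 passed in aHF-SC against qHF-SC by limma, and 0 had an unadjusted p under 0.05.

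The remaining transglutaminase and deiminase genes showed little signal. Of the 5 measured, 4 were at background in the groups compared, and none passed by limma in the other two comparisons than HF-TAC against qHF-SC, with 1 at an unadjusted p under 0.05 in HF-TAC against aHF-SC and 0 in aHF-SC against qHF-SC. Tgm6, a brain transglutaminase whose gene lies near Tgm3, had an intensity of 32.1 and 33.4 in HF-TAC, 24.4 and 20.3 in aHF-SC, and 24.4 and 19.7 in qHF-SC. Its 1.5-fold difference in HF-TAC against qHF-SC was just past the threshold (limma adjusted p = 0.0484), and was lost without any 1 of the 6 arrays. Tgm7 was not analysed here.

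**Figure D5:**
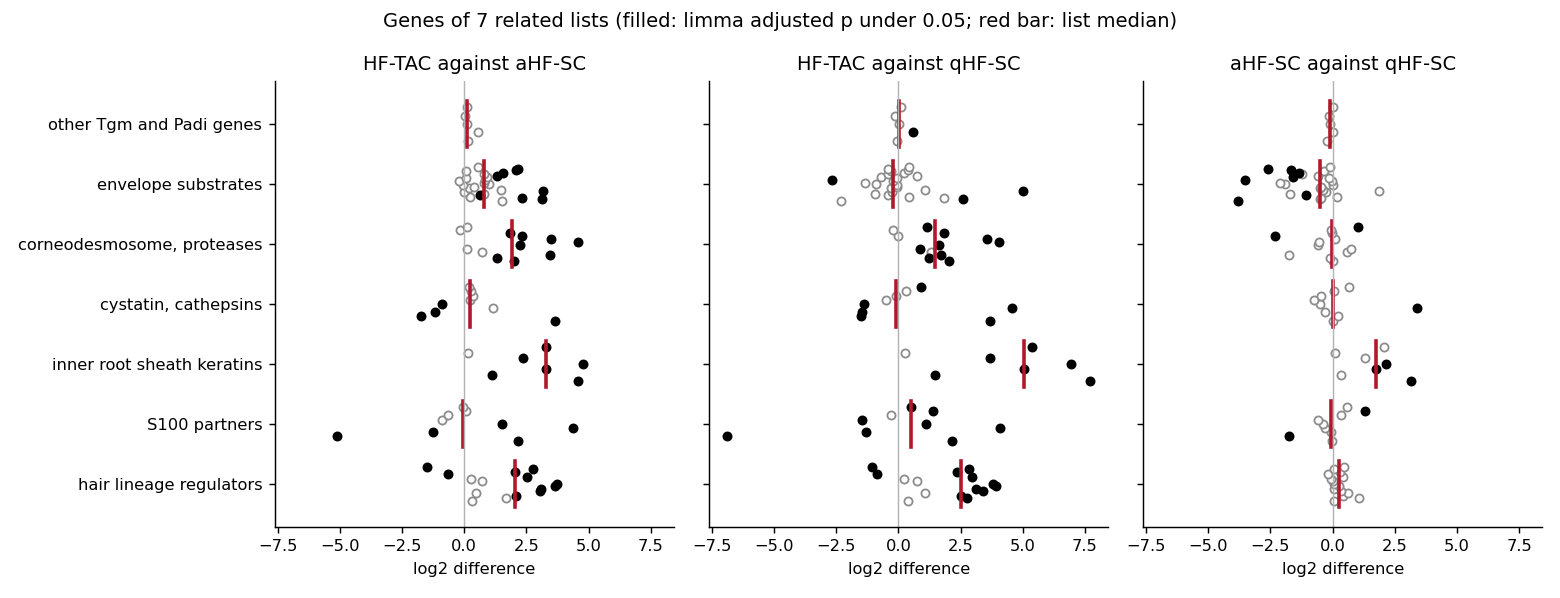
Log2 difference of every measured gene of the 7 related lists in each comparison, 1 point a gene, filled where the adjusted p was under 0.05. Inner root sheath keratins lie furthest above 0 in HF-TAC against qHF-SC, with a median of 5.06, and cornified envelope genes lie mostly below 0 in aHF-SC against qHF-SC, with a median of -0.52.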

How the data were processed

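The values used were probe set intensities on a linear scale, as deposited, for 45101 probe sets on 6 arrays. The submitters' processing notes name RMA, with no version. Per the labels' protocols, RNA was extracted with Trizol and hybridised as biotin-labelled cRNA. RMA adjusts background and equalises distributions between arrays, so a shift of all transcripts is not visible, and the number of arrays limits precision. Array medians were 22.8 to 24. Replicates correlated at 0.9885 in HF-TAC, 0.9911 in aHF-SC and 0.9915 in qHF-SC over genes on the log2 scale.

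After removal of 64 control probe sets, 34945 of the remaining 45037 had 1 gene symbol, 932 several and 9160 none. Each of 18193 genes was represented by its probe set with the highest mean. Log2 intensities of all 6 arrays were fitted in 1 linear model with group means (limma 3.58.1 in R 4.3.3, moderated test, two-sided, Benjamini-Hochberg adjustment, threshold 0.05), and all probe sets were fitted the same way. Where a group lay under background, a difference without an error was also computed with its dim arrays raised to the background intensity. The script was tested on simulated data. Figures were drawn with matplotlib 3.10.9. The text names all members, from each list the 3 genes with the largest difference past the threshold in a comparison, and the 5 genes nearest in profile to Tchh, Tgm3 and Padi3. Neighbouring genes, markers, Klk5, Dsc2, Padi6, Tinf2 and Epb42 were added after their values were seen. The members and lists were chosen with earlier results of these data known.

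Alternatives covered the choice of probe set, a filter for dim genes (32 or more on 2 arrays), an offset of 16, scaling to the 75th percentile, array weights, a trended robust prior, pairwise fits, a replicate block and omission of each array.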

Additional observations from a re-analysis of the deposited data

How the results depend on the processing

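All 6 calls of HF-TAC against qHF-SC (Tchh, Tgm1, Tgm3, Tgm5, Padi3 and Padi4) passed under each of the 16 alternatives, as did Tgm1 and Tgm3 in HF-TAC against aHF-SC and Padi3 in aHF-SC against qHF-SC. With each array left out in turn, the members called ranged from 3 to 6 in HF-TAC against aHF-SC, 6 to 7 in HF-TAC against qHF-SC and 1 to 3 in aHF-SC against qHF-SC. In the same order, member probe sets ranged from 3 to 9, 6 to 9 and 0 to 6, all genes from 1643 to 2786, 2893 to 4588 and 124 to 1354, and genes of the 7 lists from 30 to 45, 32 to 50 and 0 to 23. An omission leaves 1 group with a lone array, assumed to vary like the others. Where that group is outside the comparison, the omission repeats the pairwise fit, so the 16 alternatives are not all separate. With 16 added before the logarithm, aHF-SC against qHF-SC called 1 member, 0 member probe sets by limma and 548 genes (215 higher, 333 lower), beside 1142 without it. Scaling to the 75th percentile called 11 member probe sets in HF-TAC against aHF-SC. The cause was not tested. Tgm2 passed in aHF-SC against qHF-SC and in HF-TAC against aHF-SC with probe sets averaged (1.9 and -1.56), without probe sets ending in _x_at and _s_at (2.22 and -1.91), after the dim filter, after scaling and with the trended prior. In HF-TAC against aHF-SC it also passed in the pairwise fit. No value of reversed sign passed. Padi1 in aHF-SC against qHF-SC gave -0.01 after scaling. With each array left out, aHF-SC against qHF-SC ranged from -0.11 to 0.13 for Tgm1, -0.28 to 0.11 for Tgm3, -0.04 to 0.04 for Padi1 and -0.12 to 0.03 for Padi2. Padi2 ranged from -0.11 to 0.07 in HF-TAC against aHF-SC and from -0.15 to 0.03 in HF-TAC against qHF-SC, and Tgm2 in HF-TAC against qHF-SC from -0.75 to 1.63, the highest of which passed.

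Replicate numbers were shared between groups, but deviations of same-numbered arrays correlated at only 0.084 for HF-TAC with aHF-SC, -0.127 for HF-TAC with qHF-SC and 0.061 for aHF-SC with qHF-SC, so the numbers were not treated as pairs. With the number as a replicate block the members called were 5 in HF-TAC against aHF-SC, 6 in HF-TAC against qHF-SC and 2 in aHF-SC against qHF-SC, and all genes called were 2836, 4530 and 889. A crossed pairing, chosen after seeing the data, called 6 members and 4687 genes in HF-TAC against qHF-SC. Probe sets near the background intensity of 21.9 have compressed differences, which touches Padi1, Padi2 and the qHF-SC values of Padi3, Padi4, Krt25, Krt27, Krt28 and Krt73.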
